A study of Drosophila melanogaster with 17 samples.

Results

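The genes described are the Notch receptor of Drosophila melanogaster, its ligands and the core proteins that carry its signal, followed through 17 RNA-seq libraries of intestinal progenitor cells. The 10 members were listed by FlyBase symbol and matched to the identifiers of the count table, which holds 17737 genes. They are N, Delta, Ser, Su(H), H, kuz, neur, mib1, Psn and spdo, and all 10 were found. All 10 also passed the filter on low counts that left 11786 genes for testing.

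Both genotypes carried esgts, the field's name for a temperature-sensitive driver that acts in cells expressing escargot, which are the stem cells of the midgut and their undifferentiated daughters. The control was esgts alone, and esgts/NRNAi added an RNA interference (RNAi) construct against Notch. Virgin females were kept 5 days at 25 °C, received Lactobacillus brevis or Lactobacillus plantarum overnight or stayed germ-free, and spent 5 more days at 29 °C. Each sample pooled 100 guts, from which small GFP+ cells were sorted. The control groups were germ-free (n = 2), L. brevis (n = 3) and L. plantarum (n = 3), and the 3 Notch RNAi groups had n = 3 each. Replicates were biological per the design text, and p-values measure the spread between these samples.

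Notch is a transmembrane receptor. Delta or Serrate on a neighbouring cell binds it, and the ligand must be pulled into its own cell by endocytosis, which the ubiquitin ligases Neuralized and Mindbomb trigger. The metalloprotease Kuzbanian and then gamma-secretase cut the receptor, and the freed intracellular domain joins Suppressor of Hairless to switch on targets such as the E(spl) genes. Without that domain, Suppressor of Hairless is held in a repressor by Hairless. In the adult fly midgut, Delta marks stem cells, strong Notch signalling in the daughter favours the absorptive fate, and weak signalling favours the enteroendocrine fate.

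Total counts ran from 24192918 to 38237532 per library. Of 8 listed progenitor markers 7 were measured, and the escargot gene itself was not analysed here. Their summed level was 2092 to 2463 CPM (counts scaled to library size) in controls and 1220 to 1420 CPM under Notch RNAi, without overlap. In the mean Notch RNAi effect 5 of the 7 fell and 1 rose, where 26.9% of all tested genes were lower and 29.6% higher. One of the 7, klu, is also a Notch target described with the pathway genes. Sox21a, the defining transcription factor of the list, was at 257 to 383 CPM and 188 to 234 CPM. Visceral muscle genes stood out in L. brevis control replicate 3, where the median over 11 of them was 95.2 CPM against 0.906 to 18.2 CPM in the other libraries. Libraries differed in how long genes were represented. Across 7358 genes, the correlation of a library's deviation from its group mean with log2 exon length ran from -0.46 to 0.42, as a description. The lowest values were -0.46 in L. brevis control replicate 1, -0.43 in L. brevis Notch RNAi replicate 3, -0.30 in L. plantarum control replicate 1 and -0.29 in germ-free control replicate 1.

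The receptor gene itself was lower under Notch RNAi, where knockdown cannot be told apart from a change in the mix of sorted cells. N (FBgn0004647, X:3134870-3172221, plus strand, protein-coding, Ensembl annotation of BDGP6) lay at 166 to 224 CPM in the 8 control libraries, with a median of 195 CPM. The 9 Notch RNAi libraries lay at 52.7 to 82.9 CPM, with a median of 67.3 CPM, and the genotypes did not overlap. The receptor fell 2.96-fold without bacteria, 2.49-fold with L. brevis and 3.29-fold with L. plantarum. Reads were still assigned to N in every Notch RNAi library, and whether any came from the RNAi construct was not tested.

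Around the receptor, Delta, neur and spdo rose under Notch RNAi in all 3 microbiome conditions, and no other member was called in the same direction in all 3 besides N. Called means a p under 0.05 from edgeR (quasi-likelihood), adjusted by Benjamini-Hochberg over all tested genes. In germ-free flies 3 members rose and 2 fell, where 32.2% of all tested genes passed (17.5% higher, 14.7% lower). Under L. brevis 5 rose and 1 fell, beside 42.6% of all genes (22.3% higher, 20.3% lower). With L. plantarum 5 rose and 2 fell, beside 33.8% (17.6% higher, 16.2% lower). For the mean effect over the 3 conditions 5 rose and 2 fell, beside 56.6% (29.6% higher, 26.9% lower). With only 10 members, these shares are a description. Leaving out L. plantarum Notch RNAi replicate 3 reduced the 7 calls with L. plantarum to 4. The median log2 fold change of the 9 members other than Ser was 0.16, 0.28 and 0.45 in the 3 conditions, beside 0.00, -0.01 and 0.02 over 11171 genes with more than 3 counts in a library of every group. All 9 Notch RNAi libraries lay above all 8 controls for Delta, neur and spdo and below them for N, whereas 18.5% of all tested genes separated in this way (9.91% higher, 8.55% lower). For single comparisons of 2 or 3 libraries per group, the share of all genes that separate was not counted. Separations within a condition are therefore given below as a description only.

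**Figure D1:**
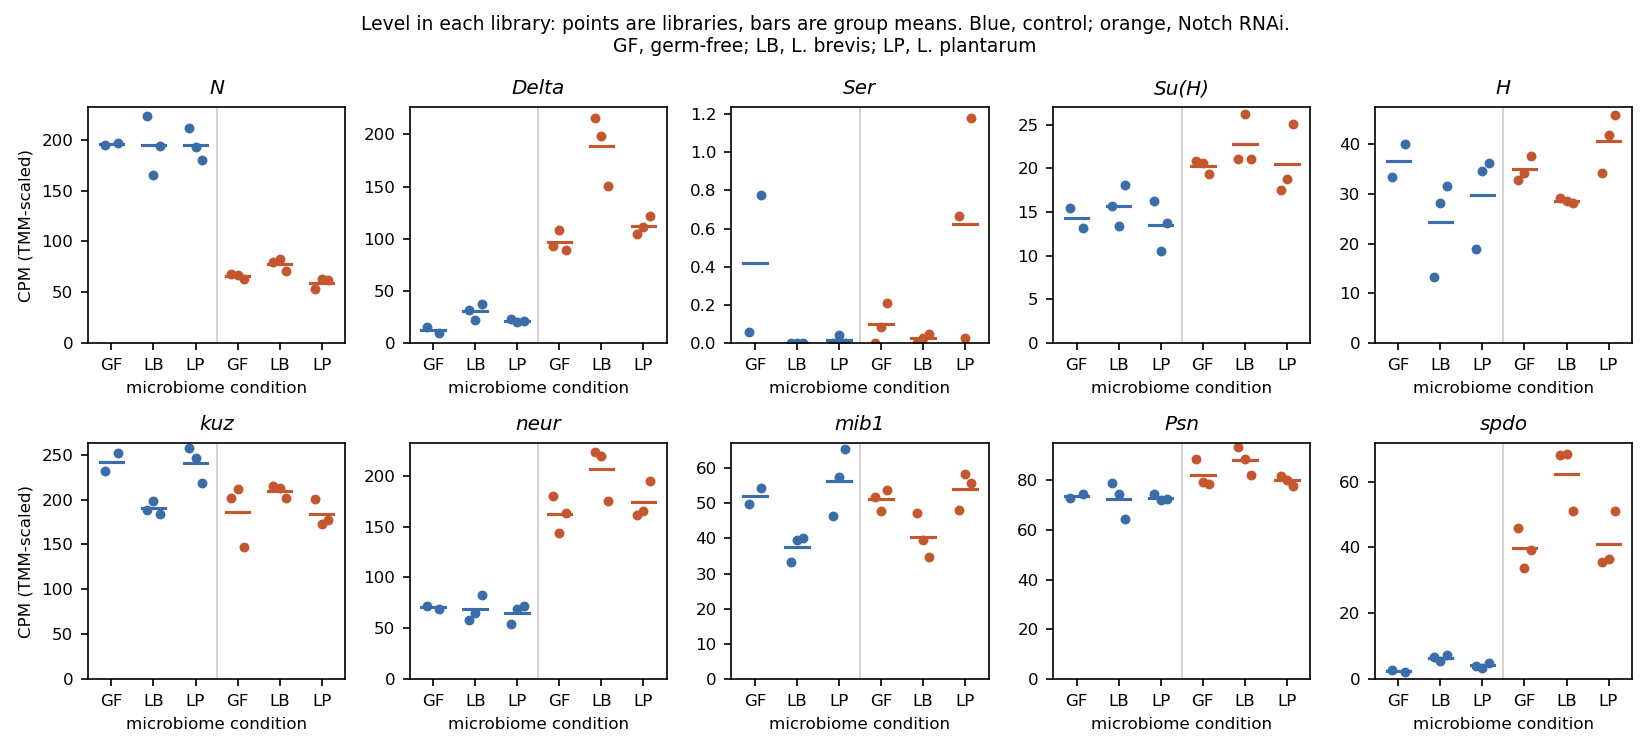
Level of each of the 10 members in CPM (y axis, linear and starting at 0, scaled per gene) in each library (points), by microbiome condition (x axis), with bars at group means, blue for control and orange for Notch RNAi. The Notch RNAi points of Delta, neur and spdo all lie above the controls, those of N all lie below, and the points of the other 6 genes overlap.

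Of the ligands, Delta (FBgn0000463, 3R:19302731-19326217, minus strand, protein-coding) was measured at 15.1 and 9.24 CPM in germ-free controls, 31.8, 22.4 and 37.3 CPM with L. brevis, and 23.1, 20.3 and 21.3 CPM with L. plantarum. Under Notch RNAi it reached 93.2, 109 and 89.3 CPM in germ-free flies, 216, 199 and 151 CPM with L. brevis, and 104, 111 and 122 CPM with L. plantarum. The lowest Notch RNAi library thus exceeded the highest control library. The rises were 7.92-fold, 6.18-fold and 5.2-fold in the 3 conditions, in the order germ-free, L. brevis and L. plantarum. In sorted bulk samples, fewer cells of a type and less RNA per cell cannot be told apart, and the same holds for a rise.

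Ser (FBgn0004197, 3R:27172090-27194267, minus strand, protein-coding), the other ligand, was barely counted. It had 99 counts over all 17 libraries, 0 in 7 of them and 46 in the highest. L. plantarum Notch RNAi replicates 1, 2 and 3 had 18, 1 and 46 counts, and the matching controls had 0, 1 and 0. These groups share the value 1, so they touch. Summed per group the ratio of 65 counts to 1, corrected for library size, was 49.4 with an exact 95% interval of 8.56 to 1982 that covers counting error only. It was called with L. plantarum (edgeR adjusted p = 0.0272), but the call was lost in 4 of the 6 fits that left out a library, namely each of the 3 L. plantarum controls and L. plantarum Notch RNAi replicate 3, with an adjusted p of up to 0.105. In germ-free flies the higher counts were in a control, with 2 and 18 in the controls and 0, 3 and 7 under Notch RNAi.

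The ligase genes that act on the ligands differed from each other. For neur (FBgn0002932, 3R:9020348-9039471, minus strand, protein-coding), controls had 72.1 and 69.0 CPM in germ-free flies, 58.4, 65.1 and 82.4 CPM with L. brevis, and 54.3, 68.7 and 72.3 CPM with L. plantarum. Notch RNAi libraries had 180, 144 and 164 CPM in germ-free flies, 224, 220 and 175 CPM with L. brevis, and 161, 165 and 195 CPM with L. plantarum. No library of one genotype reached the range of the other. On the log2 scale neur rose by 1.20 (SE 0.166) without bacteria, 1.59 (SE 0.146) under L. brevis and 1.42 (SE 0.146) under L. plantarum. Its adjusted p by edgeR was 5.73e-05, 4.98e-07 and 2.36e-06. The value of neur is uncertain in 1 respect. The antisense gene asRNA:CR31429 overlaps 1673 of its 4309 exon bases on the opposite strand, the use of strand in counting is not given in the sources used here, and reads of the pair cannot be told apart. Its counts were 40.6% to 46.3% of those of neur in every library, so both moved together.

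For mib1 (FBgn0263601, 3L:16006552-16011812, minus strand, protein-coding), no Notch RNAi effect was called. Germ-free controls had 49.8 and 54.4 CPM against 51.7, 47.9 and 53.9 CPM under Notch RNAi. With L. brevis the values were 33.2, 39.5 and 40.1 CPM against 47.2, 39.7 and 34.6 CPM, and with L. plantarum 46.3, 57.6 and 65.5 CPM against 48.2, 58.4 and 55.8 CPM. Genotypes overlapped in each condition. The log2 fold change of the mean effect was 0.01 (SE 0.081), with an edgeR adjusted p of 0.951.

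The receptor-cutting genes moved little. For kuz (FBgn0259984, 2L:13550139-13639411, plus strand, protein-coding), germ-free controls had 232 and 252 CPM and Notch RNAi libraries 201, 211 and 147 CPM. With L. plantarum the controls had 257, 247 and 219 CPM and Notch RNAi libraries 200, 173 and 177 CPM. Within both conditions every Notch RNAi library was below every control, and the falls were 1.30-fold (log2 -0.37, SE 0.127, edgeR adjusted p = 0.034) and 1.31-fold (log2 -0.39, SE 0.114, edgeR adjusted p = 0.0143). With L. brevis the controls were lower, at 188, 199 and 183 CPM, beside 215, 212 and 202 CPM under Notch RNAi. Here every Notch RNAi library was above every control, opposite to the other conditions. There the log2 fold change was 0.14 (SE 0.114, edgeR adjusted p = 0.342). The differences between these effects did not pass the test: L. brevis minus germ-free was 0.51 (SE 0.171, edgeR adjusted p = 0.166) and L. brevis minus L. plantarum was 0.53 (SE 0.162, edgeR adjusted p = 0.358). The germ-free call was lost without germ-free control replicate 1 or 2 or Notch RNAi replicate 3, where edgeR gave an adjusted p of 0.0757, 0.199 and 0.111, and with only the groups compared, at 0.109. The L. plantarum call was lost without control replicate 1 or Notch RNAi replicate 2 or 3, at 0.0535, 0.0593 and 0.0523, and the mean effect of -0.21 without germ-free control replicate 2, at 0.0545. That mean combines the falls with the uncalled rise under L. brevis.

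Psn (FBgn0284421, 3L:20432468-20435156, plus strand, protein-coding) encodes presenilin, the catalytic subunit of gamma-secretase. With L. brevis it had 78.8, 74.3 and 64.5 CPM in controls and 93.6, 88.5 and 82.2 CPM under Notch RNAi, without overlap. This rise of 1.21-fold was called (log2 0.28, SE 0.083, edgeR adjusted p = 0.013), and it was lost without L. brevis control replicate 3 (0.0677), the library with muscle RNA, or L. brevis Notch RNAi replicate 1 (0.061), and with only the groups compared (0.0705). Values in germ-free flies were 72.9 and 74.4 CPM in controls and 88.6, 79.3 and 78.7 CPM under Notch RNAi. With L. plantarum they were 74.4, 72.0 and 72.3 CPM and 81.7, 80.3 and 77.9 CPM. In both of these conditions the Notch RNAi libraries lay above the controls, as a description. The log2 changes of 0.16 (SE 0.093) and 0.13 (SE 0.083) did not pass the test (edgeR adjusted p = 0.212 and 0.246). The mean effect of 0.19 (SE 0.050) passed, with an edgeR adjusted p of 0.00409.

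The gene that changed most among the members with appreciable counts was spdo (FBgn0260440, 3R:30476684-30478849, plus strand, protein-coding), which encodes Sanpodo, a transmembrane protein that binds Notch and controls its trafficking in asymmetrically dividing cells. Controls had 2.85 and 2.03 CPM in germ-free flies, 6.58, 5.60 and 7.18 CPM with L. brevis, and 4.11, 3.37 and 4.93 CPM with L. plantarum. Notch RNAi libraries had 46.0, 33.9 and 39.2 CPM, 68.0, 68.4 and 51.0 CPM, and 35.5, 36.6 and 51.0 CPM. The lowest Notch RNAi value was several times the highest control value. The rises were 16.1-fold (log2 4.01, SE 0.252), 9.67-fold (3.27, SE 0.199) and 9.91-fold (3.31, SE 0.204). The adjusted p by edgeR was 2.73e-08, 8.81e-09 and 1.70e-08.

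Markers of other gut cells moved in the same comparisons as Delta, neur and spdo. Of 12 listed enteroendocrine markers 8 rose and 2 fell in the mean Notch RNAi effect, where 29.6% of all genes were higher and 26.9% lower. Their summed level was 13281 to 20975 CPM in controls and 16513 to 53401 CPM under Notch RNAi, and pros, the defining transcription factor of that lineage, was at 41.0 to 100.5 CPM and 198.5 to 452.3 CPM. It was at 0 in no library. All 4 listed neuronal markers rose as well, with summed levels of 82.4 to 128.7 CPM and 157.3 to 221.5 CPM. Of 10 enterocyte markers 7 fell and none rose, and the defining marker Myo31DF was at 210.7 to 452.8 CPM in controls and 151.0 to 267.9 CPM under Notch RNAi. The summed enterocyte level overlapped, at 9325 to 21946 CPM and 5798 to 22363 CPM. The part of these lists, and of the lower progenitor markers, in the results was not tested.

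In the nucleus, the DNA-binding effector and its co-repressor differed. For Su(H) (FBgn0004837, 2L:15039488-15043334, plus strand, protein-coding), controls had 15.5 and 13.2 CPM in germ-free flies, 15.7, 13.4 and 18.2 CPM with L. brevis, and 16.3, 10.5 and 13.7 CPM with L. plantarum. Notch RNAi libraries had 20.8, 20.6 and 19.3 CPM, 21.1, 26.2 and 21.1 CPM, and 17.5, 18.8 and 25.0 CPM. Within each condition the genotypes were apart, although over all conditions the ranges overlapped, at 10.5 to 18.2 CPM in controls and 17.5 to 26.2 CPM under Notch RNAi. The rise was 1.46-fold for the mean effect (log2 0.55, SE 0.105, edgeR adjusted p = 0.000335). It was called with L. brevis (0.54, SE 0.172, adjusted p = 0.0198 by edgeR) and L. plantarum (0.60, SE 0.173, adjusted p = 0.0139 by edgeR) but not in germ-free flies (0.50, SE 0.196, adjusted p = 0.063 by edgeR). These single-condition calls were lost without L. brevis control replicate 2 (0.0882) or Notch RNAi replicate 2 (0.0947), and without L. plantarum control replicate 2 (0.0695) or Notch RNAi replicate 3 (0.0904). With only the groups compared, Su(H) was called in germ-free flies (0.0195) and not with L. plantarum (0.0712), so the conditions cannot be ranked by these calls.

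For H (FBgn0001169, 3R:20621938-20628915, plus strand, protein-coding), no Notch RNAi effect was called. Germ-free controls had 33.4 and 40.1 CPM and Notch RNAi libraries 32.9, 34.2 and 37.7 CPM. The controls spread widely with L. brevis, at 13.4, 28.1 and 31.6 CPM, and with L. plantarum, at 18.9, 34.6 and 36.1 CPM, while Notch RNAi libraries had 29.2, 28.6 and 28.2 CPM and 34.2, 41.9 and 45.9 CPM. The low value in both control groups was that of replicate 1, a library with a negative length correlation, and H has 6004 exon bases. The longer N, with 10150 exon bases, was highest of its group in the same libraries, at 224 and 212 CPM. So was kuz, with 7100, in L. plantarum control replicate 1, at 257 CPM, but not in L. brevis control replicate 1, at 188 CPM. The shorter mib1, with 4095 exon bases, was lowest of its group in both replicate 1 libraries, at 33.2 and 46.3 CPM. The same held for neur, with 4309, at 58.4 and 54.3 CPM. With both libraries left out, an alternative added after seeing the data, the log2 fold change of 0.23 with L. brevis became -0.08, that of 0.45 with L. plantarum became 0.17, and neither was called. The part of gene length in the values of H was not tested.

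**Figure D2:**
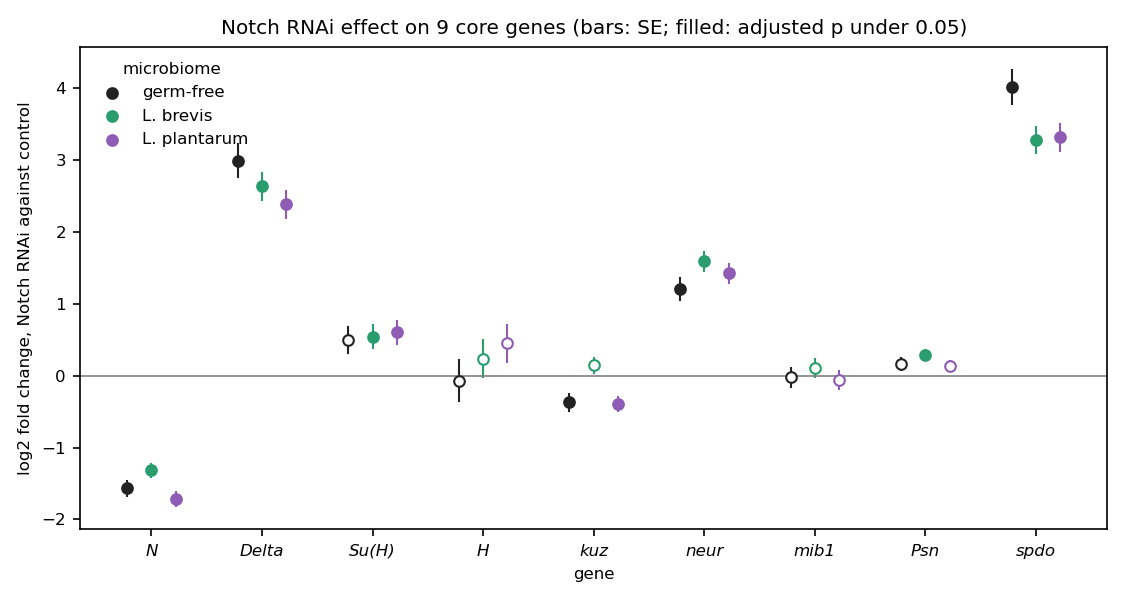
Log2 fold change of Notch RNAi against control (y axis) with SE bars for 9 members (x axis) in germ-free flies (black), with L. brevis (green) and with L. plantarum (purple); filled points have an adjusted p under 0.05. Delta and spdo lie above 2 in each condition, neur lies between 1.20 and 1.59, N lies between -1.72 and -1.32, and the other 5 lie within 0.60 of 0. Ser is left out because its counts are near 0.

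No difference between the Notch RNAi effects of 2 microbiome conditions was called for any member by edgeR. In each of the 3 difference terms 2 members had an unadjusted p under 0.05, and DESeq2 called 0. Over all genes, 0.798%, 0.0255% and 0.017% were called for L. brevis minus germ-free, L. plantarum minus germ-free and L. brevis minus L. plantarum. For spdo the differences were -0.73 (SE 0.293), -0.70 (SE 0.297) and -0.03 (SE 0.264), and for Delta -0.36 (SE 0.288), -0.61 (SE 0.290) and 0.25 (SE 0.268).

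The bacteria were then compared within a genotype, in comparisons that share groups. In controls, Delta and spdo exceeded their germ-free level when L. brevis was given, 2 of the 10 members, where 7.97% of all genes were called (5.01% higher, 2.95% lower). The rises were 2.49-fold for Delta (log2 1.32, SE 0.226, edgeR adjusted p = 0.0077) and 2.62-fold for spdo (log2 1.39, SE 0.235, edgeR adjusted p = 0.00735). The 3 L. brevis controls exceeded both germ-free controls for each gene. Both calls were lost without germ-free control replicate 2, the lower of that group's 2 libraries (edgeR adjusted p = 0.0932 for each), and when only the compared groups were fitted (0.117 and 0.0982). Without L. brevis control replicate 3 the rises were 1.15 and 1.30 on the log2 scale and were still called. Lower mib1 with L. brevis was not called (log2 -0.47, SE 0.150, edgeR adjusted p = 0.0641). It was called by DESeq2 (adjusted p = 0.0389) and by edgeR with a mean count of at least 50 (adjusted p = 0.0487).

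Under Notch RNAi, Delta and spdo were again the members called for L. brevis against germ-free, both higher, beside 9.36% of all genes (4.87% higher, 4.49% lower). Delta rose 1.94-fold (log2 0.96, SE 0.189, edgeR adjusted p = 0.00746), a call kept in all 6 fits that left out a library. The rise of spdo was 1.57-fold (log2 0.65, SE 0.180, edgeR adjusted p = 0.0342). It was lost without germ-free Notch RNAi replicate 2 or 3 or L. brevis Notch RNAi replicate 1 or 2, at adjusted p-values of 0.138, 0.0778, 0.112 and 0.131. Of the 12 enteroendocrine markers 2 rose and 4 fell in the same comparison, and their part in it was not tested.

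Under Notch RNAi, N, Delta and spdo were higher and mib1 lower with L. brevis than with L. plantarum, 4 members beside 14.4% of all genes (7.36% higher, 7% lower). The log2 differences were 0.40 for N (SE 0.107, edgeR adjusted p = 0.0265), 0.75 for Delta (SE 0.188, edgeR adjusted p = 0.0218), 0.60 for spdo (SE 0.180, edgeR adjusted p = 0.0372) and -0.42 for mib1 (SE 0.135, edgeR adjusted p = 0.0488). The L. brevis values exceeded all L. plantarum values for N and Delta. For spdo the ranges just overlapped, with 50.96 CPM in L. brevis replicate 3 and 51.01 CPM in L. plantarum replicate 3. The calls of N, Delta and spdo were lost without L. brevis Notch RNAi replicate 1 or 2 or L. plantarum Notch RNAi replicate 1 or 2, with edgeR adjusted p-values of up to 0.101, 0.0831 and 0.143. For mib1 every leave-one-out fit but that without L. brevis Notch RNAi replicate 1 lost the call, with an edgeR adjusted p of up to 0.170. It was also lost with other size factors (0.0546), without ribosomal RNA genes (0.0634), without a count filter (0.0573), with the replicate block (0.0568) and with only the groups compared (0.0589). The last setting also lost the calls of N (0.0572) and spdo (0.0703). It gained a call for H, lower with L. brevis (log2 -0.54, edgeR adjusted p = 0.0245). The fit of all libraries had not called H here (log2 -0.50, SE 0.270, edgeR adjusted p = 0.217). The enteroendocrine list had 1 marker higher and 3 lower in this comparison.

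In controls, mib1 was the only member called by edgeR for L. brevis against L. plantarum, where 2.81% of all genes were called (0.976% higher, 1.83% lower). It was lower with L. brevis (log2 -0.59, SE 0.135, edgeR adjusted p = 0.0371). The highest L. brevis control, 40.1 CPM, was below the lowest L. plantarum control, 46.3 CPM. Fits without L. brevis control replicate 1 or 2 or L. plantarum control replicate 2 or 3 no longer called it, at an edgeR adjusted p of 0.146, 0.0664, 0.124 and 0.173. Nor did the fit of only the groups compared, at 0.223. DESeq2 also called spdo, higher with L. brevis (log2 0.62, DESeq2 adjusted p = 0.0472, edgeR adjusted p = 0.0859).

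For L. plantarum against germ-free, edgeR called 0 of the 10 members in controls, where 0.161% of all genes were called and 3 members had an unadjusted p under 0.05, and DESeq2 called 1. That gene is Delta, at a log2 difference of 0.82 (SE 0.223, edgeR adjusted p = 0.128, DESeq2 adjusted p = 0.0198), and in the authors' deposited table its false discovery rate is 0.0489. Under Notch RNAi edgeR and DESeq2 called 0 members and 0 had an unadjusted p under 0.05, beside 0.136% of all genes. Of 72 values that the authors' deposited tables give for 9 members, 71 lay on the same side of 0.05 as here, and that of Delta was the exception. Those 8 tables do not include L. brevis against germ-free in controls. They come from the same libraries, and the authors also named edgeR.

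**Figure D3:**
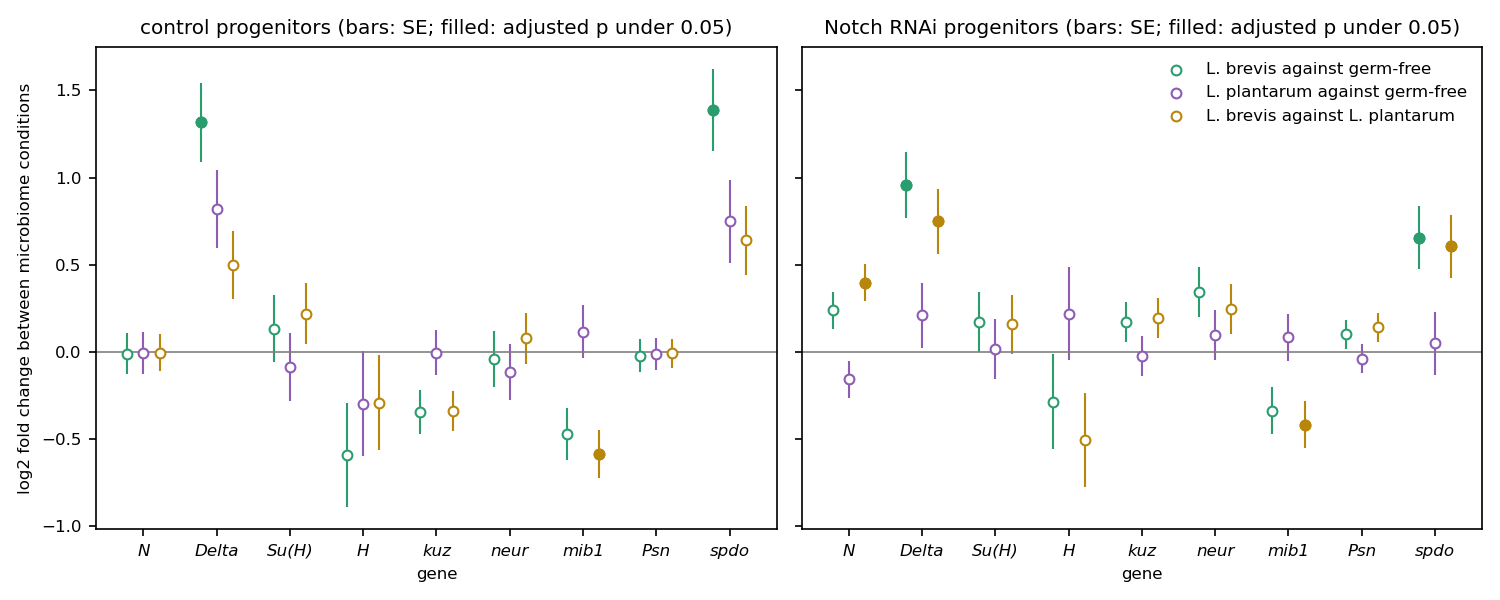
Log2 fold change between microbiome conditions (y axis) with SE bars for 9 members (x axis), in control (left) and Notch RNAi progenitors (right), for L. brevis against germ-free (green), L. plantarum against germ-free (purple) and L. brevis against L. plantarum (gold); filled points have an adjusted p under 0.05. Delta and spdo are the members filled for L. brevis against germ-free in both genotypes, and no L. plantarum against germ-free point is filled.

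Levels of different members were set side by side only per kilobase of exon. In controls the order of median CPM per kilobase was Psn at 35.9, kuz at 31.7, N at 19.2, neur at 16, mib1 at 11.7, H at 5.41, Su(H) at 4.95, Delta at 4.14, spdo at 2.17 and Ser at 0. The ranges over the 8 libraries overlapped between Psn and kuz, between N and neur, between neur and mib1, and in each neighbouring pair from H down to spdo. Within every single control library, however, Psn exceeded kuz, neur exceeded mib1 and Delta exceeded spdo. The order of the other overlapping neighbours varied between libraries. Gaps without overlap lay between kuz and N, mib1 and H, and spdo and Ser. Under Notch RNAi the order was neur at 40.7, Psn at 39.9, kuz at 28.3, spdo at 22, Delta at 21.0, mib1 at 11.8, Su(H) at 7.06, N at 6.63, H at 5.69 and Ser at 0.0085. There the ranges separated between Psn and kuz, Delta and mib1, and H and Ser. The receptor moved from the third place to the eighth, below both Delta and spdo, which it had exceeded in controls.

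The wider pathway was read from a list of 61 other genes, of which 57 were tested. Without bacteria 6 were higher (10.5%) and 13 lower (22.8%) under Notch RNAi, beside 17.5% and 14.7% of all genes. Under L. brevis 16 were higher (28.1%) and 14 lower (24.6%), beside 22.3% and 20.3%. Under L. plantarum 13 were higher (22.8%) and 14 lower (24.6%), beside 17.6% and 16.2%. For the mean effect 20 were higher and 20 lower (35.1% each), beside 29.6% and 26.9%. Over the 54 of them with appreciable counts in every group, the median log2 fold change of the mean effect was 0.01, as for all 11171 such genes. All 9 Notch RNAi libraries were above all controls for 6 of the 57 and below them for 10, beside 9.91% and 8.55% of all genes, so the count above is near the share of all genes.

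Targets fell furthest. In each condition 5 of the 6 tested E(spl) genes of the bHLH repressor class fell. Of all tested genes, 14.7% were lower without bacteria, 20.3% under L. brevis and 16.2% under L. plantarum. The E(spl) bHLH genes are the classical direct targets of Notch. E(spl)m3-HLH had 318 to 498 CPM in controls and 3.07 to 8.68 CPM under Notch RNAi, with a mean effect of -6.14 (SE 0.174). E(spl)mbeta-HLH went from 349 to 490 CPM in controls to 4.91 to 12.3 CPM (-5.55, SE 0.153). E(spl)m5-HLH was scarce, with 66 counts over the 8 controls and 5 over the 9 Notch RNAi libraries, a ratio of 0.0544 with an exact 95% counting interval of 0.0171 to 0.134. Klumpfuss, encoded by klu, is a zinc finger repressor expressed in the absorptive daughters. It had 203 to 281 CPM in controls and 7.54 to 13.9 CPM under Notch RNAi (-4.60, SE 0.084). All of these mean effects had edgeR adjusted p-values of at most 7.57e-05.

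Among the same targets, E(spl)m8-HLH and dpn went the other way. E(spl)m8-HLH had 0.212 to 1.35 CPM in controls and 1.59 to 8.63 CPM under Notch RNAi, without overlap (2.89, SE 0.294, edgeR adjusted p = 4.95e-07). The bHLH repressor gene dpn, which marks neural stem cells in the fly brain, had 0.612 to 3.00 CPM and 4.07 to 10.4 CPM (2.34, SE 0.296, edgeR adjusted p = 7.12e-06). The antisense gene asRNA:CR44275 overlaps 1207 of its 2036 exon bases, so its value is uncertain. For insv, which encodes a co-repressor that binds Su(H), the levels were 2.81 to 3.95 CPM and 6.87 to 13.9 CPM (1.40, SE 0.119, edgeR adjusted p = 6.09e-08).

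The Bearded family, small proteins that inhibit Neuralized, split. Of 5 tested members E(spl)malpha-BFM, E(spl)m2-BFM and E(spl)m6-BFM fell and Brd and Tom rose in the mean effect. Of all tested genes 26.9% were lower in it and 29.6% higher. E(spl)m2-BFM and Tom were named after their values were seen. The genotypes overlapped in CPM for E(spl)m2-BFM, E(spl)m6-BFM and Tom, and Tom had counts near 0 in a group. E(spl)malpha-BFM had 184 to 261 CPM in controls and 5.58 to 23.6 CPM under Notch RNAi (-4.34, SE 0.097, edgeR adjusted p = 1.69e-14). Brd had 0 counts in all 8 controls and 80 counts over the 9 Notch RNAi libraries, in each of which it was found. Against a floor of 3 counts over the 8 controls, it was at least 19.2-fold higher.

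Genes that modify the receptor also moved in both directions. The gene fng encodes Fringe, a glycosyltransferase that changes which ligand Notch responds to. It had 63.0 to 115 CPM in controls and 12.1 to 24.1 CPM under Notch RNAi, with effects of -1.84 (SE 0.172), -2.66 (SE 0.165) and -2.29 (SE 0.162). The protein O-glucosyltransferase gene rumi had 6.57 to 10.8 CPM and 11.2 to 16.5 CPM (mean effect 0.78, SE 0.087). Tace, a metalloprotease related to Kuzbanian, had 6.04 to 13.3 CPM and 12.4 to 25.6 CPM, with effects of 1.24, 0.77 and 0.81 that were called in each condition. In contrast, of the 3 gamma-secretase subunits other than Psn, none was called within a condition and 1 was lower in the mean effect. It was aph-1 (-0.31, SE 0.085, edgeR adjusted p = 0.00549), named after its value was seen.

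**Figure D4:**
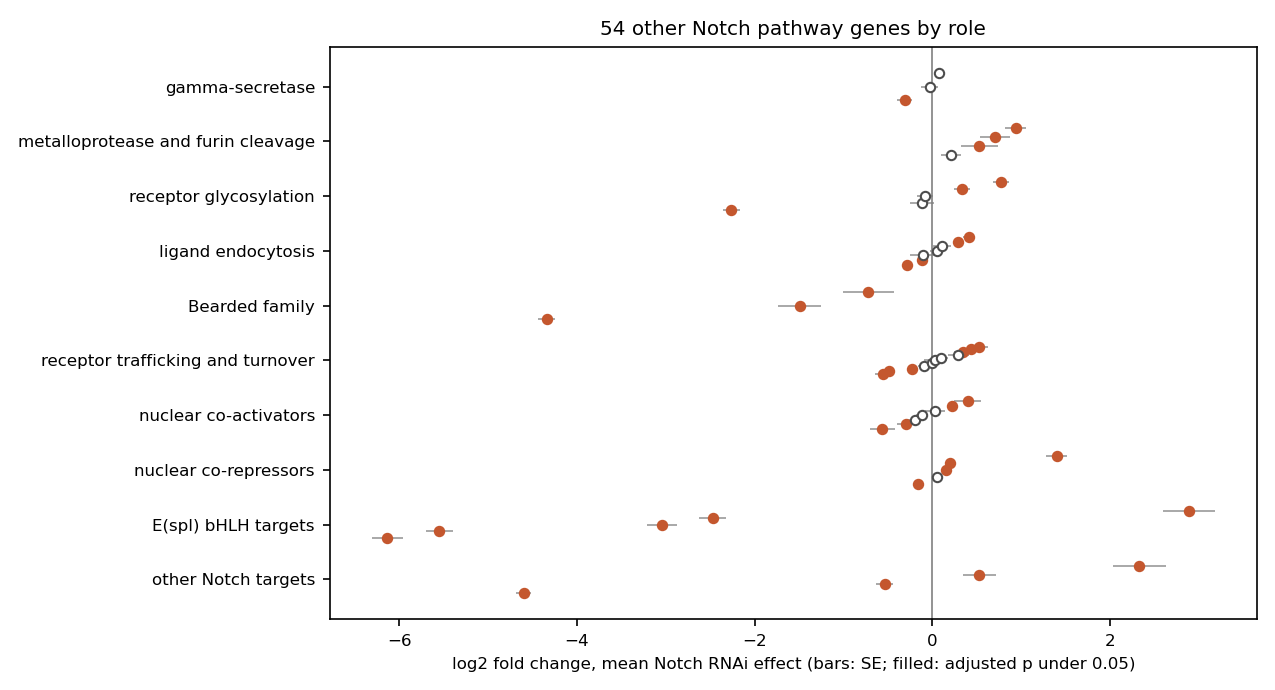
Mean Notch RNAi effect (x axis, log2 fold change with SE bars) of 54 other Notch pathway genes by role (y axis); filled points have an adjusted p under 0.05, and 3 tested genes with counts near 0 in a group are left out. The E(spl) bHLH targets lie at -2.47 or below apart from E(spl)m8-HLH at 2.89, and fng lies apart from the other glycosylation genes at -2.26.

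Between microbiome conditions, the list had 3 calls for L. brevis against germ-free in controls (5.3%, beside 7.97% of all genes). Tace was higher (0.78, SE 0.224), and ct (-1.17, SE 0.338) and nej (-0.63, SE 0.152), which encode a homeodomain protein and the acetyltransferase CBP, were lower. Under Notch RNAi 4 were higher and 2 lower (10.5%, beside 9.36% of all genes), among them E(spl)m8-HLH (1.68, SE 0.419), E(spl)malpha-BFM (1.17, SE 0.150) and E(spl)m7-HLH (0.96, SE 0.260) with L. brevis higher, and fng (-0.57, SE 0.159) and l(2)gd1 (-0.44, SE 0.093) lower. L. brevis against L. plantarum gave 3 lower genes in controls (5.3%, beside 1.83% of all genes lower), Asx (-1.0, SE 0.238), l(2)gd1 (-0.38, SE 0.093) and lqf (-0.34, SE 0.084). Asx encodes a Polycomb-related chromatin protein, l(2)gd1 a protein of endosomal Notch trafficking, and lqf epsin, which acts in ligand endocytosis.

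In the same comparison under Notch RNAi 4 were higher and 8 lower (7% and 14%, beside 7.36% and 7% of all genes), led by E(spl)m6-BFM (1.78, SE 0.498), E(spl)malpha-BFM (1.39, SE 0.151) and E(spl)m8-HLH (1.30, SE 0.413) above and kto (-1.04, SE 0.247), Asx (-0.95, SE 0.238) and ago (-0.68, SE 0.215) below. Of these, kto encodes a Mediator subunit and ago an F-box protein. The edgeR adjusted p-values of the named genes in the 4 comparisons were 0.00115 to 0.0485. In the 2 comparisons under Notch RNAi, E(spl)malpha-BFM and l(2)gd1 kept their calls in all 6 fits that left out a library each, whereas the others named lost theirs in at least 2 of 6. The 6 calls in controls were each lost in at least 3 of 5 or 6 such fits. For L. plantarum against germ-free edgeR called 0 of the 57 in controls, with 10 at an unadjusted p under 0.05 and 1 called by DESeq2, and 0 under Notch RNAi, with 7 and 0.

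Genes most like N and Delta were sought among 8158 genes by the Pearson correlation of log2 CPM over the 17 libraries, as a description. Since the genotypes form 2 separate clusters, the correlation over all libraries includes the gap between them, and those within controls and within Notch RNAi follow it in parentheses. The 5 most like N were E(spl)malpha-BFM at 0.990 (0.182, 0.911), E(spl)mbeta-HLH at 0.983 (0.517, 0.424), E(spl)m3-HLH at 0.976 (0.0943, 0.156), CG17807 at 0.976 (0.254, 0.497) and Gorab at 0.976 (0.664, 0.898). The 5 most like Delta were HP4 (0.989), Mcm7 (0.986), asRNA:CR45871 (0.985), msb1l (0.984) and D1 (0.981). For those 5 the correlation within controls was 0.867 to 0.969 and within Notch RNAi 0.831 to 0.901. Mcm7 encodes a subunit of the replicative helicase.

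Members were also paired with each other within a genotype, in 72 pairs over 8 control or 9 Notch RNAi libraries. Under Notch RNAi neur and spdo varied together between libraries (Pearson r = 0.961, exact permutation p = 9.6e-05, adjusted 0.00694; Spearman rho = 0.95, exact permutation p = 0.00035, adjusted 0.0254). With the 2 libraries farthest from the median of neur left out, r was 0.882. In controls r was 0.01. Delta and spdo were correlated in controls (r = 0.949, exact permutation p = 0.0002, adjusted 0.00714; rho = 0.929, exact permutation p = 0.0022, adjusted 0.0536), with r = 0.873 without the 2 farthest libraries. Under Notch RNAi r was 0.858 (exact permutation p = 0.0041, adjusted 0.0733) and 0.495 without the 2 farthest libraries, so that relation rests on them. These permutations treat the microbiome conditions of a genotype as exchangeable, although Delta and spdo differed between them. As deviations from the group means, a comparison added after seeing the data, neur and spdo under Notch RNAi had r = 0.978 (exact permutation within groups, p = 0.00926, smallest possible 0.00463) and r = 0.982 without the 2 farthest libraries. Delta and spdo had r = 0.766 in controls (exact permutation within groups, p = 0.0833, smallest possible 0.0139) and 0.490 under Notch RNAi (p = 0.241, exact). None of the 72 pairs passed adjustment in this form, the lowest adjusted p being 0.5. With so few possible permutations, a single pair at the smallest possible p could not pass adjustment over 72 pairs. This form therefore cannot decide whether Delta and spdo are related within conditions.

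**Figure D5:**
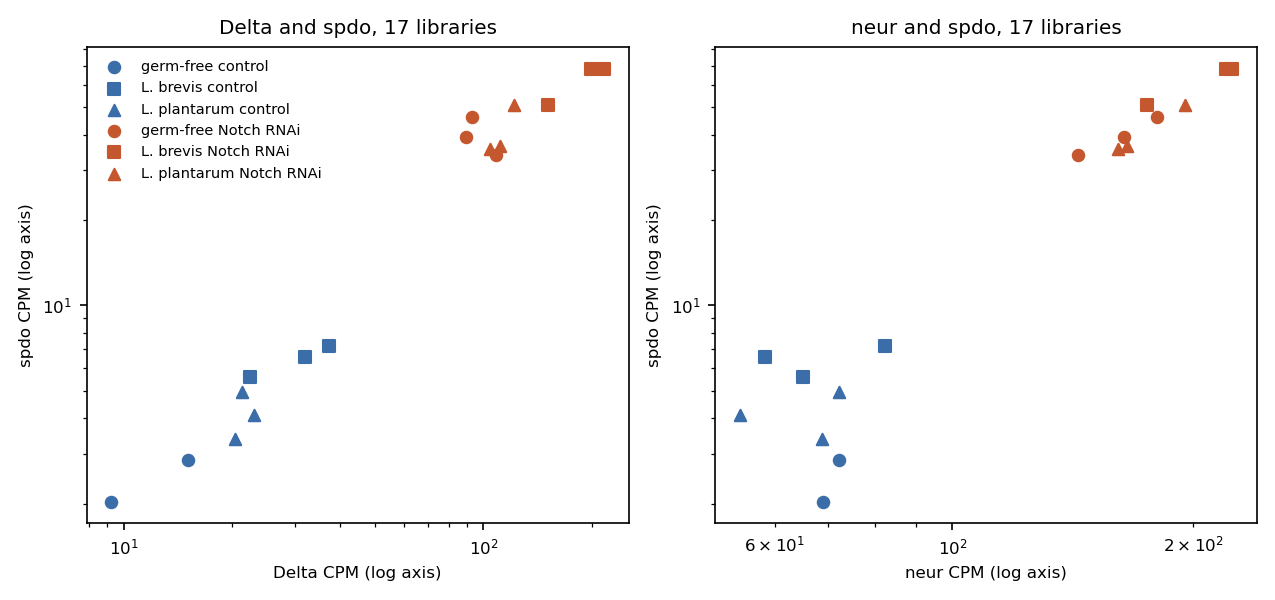
CPM of spdo (y axis, log scale) against CPM of Delta (left) and neur (right, x axes, log scale) in 17 libraries, blue for control and orange for Notch RNAi, with circles for germ-free, squares for L. brevis and triangles for L. plantarum. Control libraries form a rising line for Delta and no line for neur (r = 0.949 and 0.01), and Notch RNAi libraries rise with both.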

How the data were processed

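The authors deposited raw counts, whole numbers for each gene and library. FastQC, Trimmomatic, HISAT2, SAMtools and edgeR are named in the submitters' processing notes, and the genome build, counting tool and use of strand are not given in the sources used here. The authors' deposited comparison tables give log2 fold changes and p-values with false discovery rates.

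All 17 count columns were matched by name and 17599 of 17737 identifiers had a symbol. Counts were analysed with edgeR 4.0.16 in R 4.3.3, using filterByExpr by group (11786 genes), TMM scaling, and 1 robust quasi-likelihood fit with a mean per group over all 17 libraries, tested on simulated data first. The 13 contrasts were adjusted by Benjamini-Hochberg over all tested genes, and called at 0.05. CPM values are TMM-scaled. Every replicate pair differed by more than sampling noise (chi-square per degree of freedom 29.7 to 228.3). Intervals cover counting error only.

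Coordinates and exon lengths come from Ensembl's BDGP6 annotation, and the build behind the counts may be another. Members and lists were chosen with earlier results of these data known. Other pathway genes named are the 5 largest rises and 5 largest falls of the mean effect without overlap between genotypes, plus up to 3 per direction called in a microbiome comparison or difference of effects. Likeness to N and Delta names 5 genes each with a mean CPM of at least 5. Alternatives were DESeq2 1.42.0, other size factors, ribosomal RNA genes removed, no count filter, a mean count of at least 50, a replicate block, only the groups compared, each library left out, and 2 control libraries left out together, the last chosen after seeing the data.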

Additional observations from a re-analysis of the deposited data

Results flagged for a closer look

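E(spl)malpha-BFM, a Bearded family gene, was the pathway gene whose Notch RNAi effect differed between microbiome conditions. It was 1 of 2 genes among 11786 called for L. brevis minus L. plantarum. Controls with L. brevis had 261, 229 and 249 CPM and controls with L. plantarum 254, 236 and 253 CPM. Under Notch RNAi the values were 23.6, 19.3 and 17.4 CPM with L. brevis and 5.58, 8.0 and 9.37 CPM with L. plantarum, and germ-free libraries had 8.94, 8.01 and 9.77 CPM. The controls overlap between the bacteria, and the Notch RNAi groups do not. The difference of the log2 effects was 1.39 (SE 0.207, edgeR adjusted p = 0.0338). It was called in 3 of 12 fits that left out a library, namely those without L. brevis Notch RNAi replicate 3 and L. plantarum Notch RNAi replicates 1 and 3, with adjusted p-values of 0.0138 to 0.133 over the 12. Over all 20 alternatives 9 called it, and the highest adjusted p was 0.221. Its size stayed between 1.21 and 1.57.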

How the results depend on the processing

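No called value changed direction under any alternative. Of the core counts, the 3 Notch RNAi effects by condition ranged over 4 to 5, 5 to 6 and 4 to 7 calls when 1 library was left out, with 5, 6 and 7 in all libraries. Counts between microbiome conditions depended more on the setting, and the cause was not tested beyond the loss of samples.

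For L. brevis against germ-free in controls, 2 core genes became 0 when only the groups compared were fitted and 0 to 2 with a library left out. The 3 other pathway genes became 8 with DESeq2, 5 with a mean count of at least 50, 0 with only the groups compared, 1 without both control libraries low in long genes, and 0 to 3 with a library left out. For L. plantarum against germ-free in controls, DESeq2 gave 1 in place of 0 for both lists. For L. brevis against L. plantarum in controls, 1 core gene became 2 with DESeq2, 0 with only the groups compared and 0 to 1 with a library left out. The 3 pathway genes became 7 with DESeq2, 1 without ribosomal RNA genes, 1 without a count filter, 5 with a mean count of at least 50, 0 with only the groups compared, 7 without both control libraries, and 0 to 10 with a library left out.

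Under Notch RNAi, leaving out a library gave 1 to 2 core and 2 to 6 pathway genes for L. brevis against germ-free (2 and 6), and 0 to 3 and 2 to 12 for L. brevis against L. plantarum (4 and 12). In the latter, only the groups compared gave 2 core genes and DESeq2 gave 19 pathway genes. Of the differences of effects, L. brevis minus germ-free went from 0 to 2 pathway genes with DESeq2. L. brevis minus L. plantarum went from 1 to 2 with DESeq2, 0 with only the groups compared, 0 without both control libraries, and 0 to 1 with a library left out.

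Over all genes, DESeq2 called 1452 where edgeR called 939 for L. brevis against germ-free in controls, 319 against 19 for L. plantarum against germ-free, and 868 against 331 for L. brevis against L. plantarum. With only the groups compared these were 0, 1 and 6. Fits that left out a library called 35 to 1102, 0 to 44 and 2 to 1292. Under Notch RNAi such fits called 326 to 965 in place of 1103 for L. brevis against germ-free, 0 to 19 in place of 16 for L. plantarum against germ-free, and 250 to 1649 in place of 1692 for L. brevis against L. plantarum. For the Notch RNAi effect in germ-free flies, 3799 calls became 2428 to 3268.

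Replicate numbers gave no clear pairing of the samples. Same-numbered libraries deviated together at r = -0.147 to 0.181 (median 0.012), and 7 of 40 pairs exceeded 0.1. Differently numbered libraries lay at r = -0.263 to 0.265 (median -0.008), and 10 of 80 pairs exceeded 0.1. With the replicate block, the core counts were 5, 6 and 7 for the 3 Notch RNAi effects, 7 for the mean effect, and 3 in place of 4 for L. brevis against L. plantarum under Notch RNAi, where mib1 was lost. Over all genes the block gave 37 in place of 16 for L. plantarum against germ-free under Notch RNAi, 11 in place of 2 for L. brevis minus L. plantarum and 1 in place of 3 for L. plantarum minus germ-free. Ser, Brd, Tom and E(spl)m5-HLH are limited by depth, and the germ-free control group by its 2 libraries.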
